A study of Homo sapiens with 12 samples.

Results

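The E2F transcription factors and 2 of the pocket proteins that bind them were followed in LNCaP cells, an androgen-dependent line from a lymph node metastasis of prostate cancer. The 10 genes are E2F1, E2F2, E2F3, E2F4, E2F5, E2F6, E2F7, E2F8, RB1 and RBL1. They were taken by name as a family, with earlier results of these data known, out of 34643 gene symbols in the deposited table. All 10 were among the 15419 genes that passed the filter on low counts. RNA-seq was available for 12 libraries in 4 groups of 3: shScramble DHT-, shScramble DHT+, shTMEFF2 DHT- and shTMEFF2 DHT+. All groups had been transduced with a lentiviral pLKO.1-puro plasmid that drives a short hairpin RNA from the U6 promoter and had been selected in puromycin. shTMEFF2 targets TMEFF2, a transmembrane protein of prostate and brain, and shScramble is its control. Which of the TMEFF2 hairpins of the study was sequenced is not given in the sources used here. About 2.5 weeks after transduction the cells of every group were kept for 24 h in medium with charcoal-stripped serum, which is depleted of androgen, and then given 10 nM dihydrotestosterone (DHT+) or ethanol vehicle (DHT-) for 24 h. That time is from the sample records, and the paper's methods give a somewhat shorter growth before androgen depletion. The 3 libraries of a group were separate treatments and RNA extractions that came from 2 transductions, and which library came from which transduction is not given in the sources used here. Each line thus holds cells of 2 transductions. The p-values measure the spread between its libraries, in which treatments and transductions cannot be told apart.

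E2F factors bind the promoters of genes needed to enter S phase and to copy DNA. The pocket proteins RB1, RBL1 (p107) and RBL2 (p130) can hold several of these factors in repressive complexes. Cyclin-dependent kinases phosphorylate the pocket proteins, which releases the activating factors E2F1, E2F2 and E2F3. E2F4 and E2F5 work mainly as repressors with pocket proteins, E2F6 represses without them, and E2F7 and E2F8, the atypical members, repress E2F target genes late in S phase. Several of these genes, E2F1 among them, are themselves E2F targets, and androgen is a main growth signal for LNCaP cells. In bulk RNA the share of cells that are cycling and the amount of RNA in each cell cannot be told apart.

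The promoters of 4 members on which the results turn are shown, as the 250 bases before the annotated start on the strand of the gene, from RefSeq on GRCh38.p14. Capitals mark the letters TTTCGCGC, TTTGGCGC, TTTCCCGC or TTTGCCGC, spellings of the E2F consensus, searched on both strands. E2F1, E2F2 and E2F7 are shown because they rose with DHT in shTMEFF2, and RBL1, chosen after its values were seen, because it passed the adjusted p there. The E2F1 window is chr20:33686386-33686635, minus strand, that of E2F2 is chr1:23531234-23531483, minus strand, that of E2F7 is chr12:77065570-77065819, minus strand, and that of RBL1 is chr20:37095998-37096247, minus strand.
E2F1: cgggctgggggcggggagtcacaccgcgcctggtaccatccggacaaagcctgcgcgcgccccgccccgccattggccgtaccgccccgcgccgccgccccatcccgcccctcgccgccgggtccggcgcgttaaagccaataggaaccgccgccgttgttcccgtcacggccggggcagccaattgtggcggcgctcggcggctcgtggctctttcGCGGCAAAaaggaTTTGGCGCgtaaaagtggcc
E2F2: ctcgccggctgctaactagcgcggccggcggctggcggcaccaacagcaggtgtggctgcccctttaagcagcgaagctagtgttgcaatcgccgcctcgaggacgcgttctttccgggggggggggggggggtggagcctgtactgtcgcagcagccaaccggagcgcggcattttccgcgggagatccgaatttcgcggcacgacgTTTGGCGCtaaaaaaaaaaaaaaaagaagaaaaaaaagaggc
E2F7: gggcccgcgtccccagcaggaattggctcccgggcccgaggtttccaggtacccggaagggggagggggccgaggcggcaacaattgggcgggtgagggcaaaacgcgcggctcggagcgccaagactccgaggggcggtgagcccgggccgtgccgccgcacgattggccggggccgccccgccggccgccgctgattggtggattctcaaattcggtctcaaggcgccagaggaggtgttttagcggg
RBL1: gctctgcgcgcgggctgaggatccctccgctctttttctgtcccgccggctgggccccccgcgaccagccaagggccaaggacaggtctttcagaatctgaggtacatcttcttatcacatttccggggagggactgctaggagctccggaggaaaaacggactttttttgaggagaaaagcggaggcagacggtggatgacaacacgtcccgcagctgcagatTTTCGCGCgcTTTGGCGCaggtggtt

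E2F1 had 2 matches, TTTGCCGC on the opposite strand (printed as GCGGCAAA) at 33 to 26 bases before the start and TTTGGCGC at 20 to 13 bases before it. E2F2 had TTTGGCGC at 42 to 35 bases before the start. RBL1 had TTTCGCGC at 26 to 19 bases and TTTGGCGC at 16 to 9 bases before the start. In the E2F7 window none of these letters were found. Of the 8 members with a window, RB1 among them, 4 held a match (50%), the fourth being E2F3. So did 10 of the 21 textbook E2F target genes that had a window (47.6%) and 979 of 35116 promoters in all (2.79%). The letters TTTGAA or TTCGAA, spellings of the cell cycle homology region, were in 1 member, E2F3 (12.5% of the 8), and in 14.3% of all promoters. The RB1 window, from 48476200 to 48476449 on chromosome 13, lies inside the gene (48303744 to 48599436, plus strand) and not at its first exon. Windows for E2F5 and E2F8 were not used here. GC content was 72.4% for E2F1, 71.2% for E2F7, 60.8% for E2F2 and 59.2% for RBL1, against a median of 58% over all windows. A match is a description of letters and not of binding.

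TMEFF2 itself, the target of the hairpin, was measured at 77.8, 73.8 and 103 CPM (counts scaled to library size and normalized by TMM) in shScramble DHT- and at 68.6, 39.3 and 81.7 CPM in shTMEFF2 DHT-. With DHT it was at 173, 117 and 169 CPM in shScramble and at 142, 90.1 and 114 CPM in shTMEFF2. The mean was lower in the knockdown line in both cases, but the libraries overlapped. The log2 fold change was -0.43 without DHT (adjusted p = 0.503) and -0.41 with DHT (adjusted p = 0.304) by edgeR's quasi-likelihood test, neither of which passed. The shTMEFF2 library was below the shScramble library of the same number in 6 of 6 cases, and in a fit with a replicate block the values were -0.47 (adjusted p = 0.124) and -0.40 (adjusted p = 0.0689). By Western blot the study reported lower TMEFF2 protein with some of its hairpins, and protein was not measured here. Totals were 19450866 to 22612046 counts per library. All 9 luminal prostate markers used, such as KLK3 and KRT8, passed the filter on low counts. They did not all move the same way. With DHT in shScramble the mean of KLK3 rose from 1925 to 7495 CPM and that of FOLH1 fell from 2566 to 1392 CPM. HOXB13 and STEAP2 also had lower means with DHT there. The sum of the markers differed between the groups. It was 7916 to 8074 CPM in shScramble DHT-, 15270 to 16980 in shScramble DHT+, 5275 to 5925 in shTMEFF2 DHT- and 6053 to 7592 in shTMEFF2 DHT+, without overlap between any of the 4. The 4 basal markers summed to at most 1.92 CPM with KRT5 at 0 in all libraries. The 5 stromal markers summed to 21.1 to 22.0, 12.7 to 13.6, 23.1 to 34.5 and 17.4 to 21.0 CPM in the same order of groups, and the 5 markers of blood and endothelium to 23.7 to 40.5 CPM. The part of these markers in the results was not tested.

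Levels of different genes were set side by side only per kilobase of the canonical transcript in GENCODE, which is approximate because other transcripts are also counted. Over the 4 group means, E2F4 was the most abundant E2F at 32.9 CPM per kb, followed by E2F1 at 16.5, E2F3 at 11.2, E2F5 at 9.41 and E2F6 at 6.77. The atypical factors were lower, E2F8 at 4.76 and E2F7 at 2.69 CPM per kb, and E2F2 was lowest at 2.15. RB1 stood at 16.8 CPM per kb and RBL1 at 4.59.

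**Figure D1:**
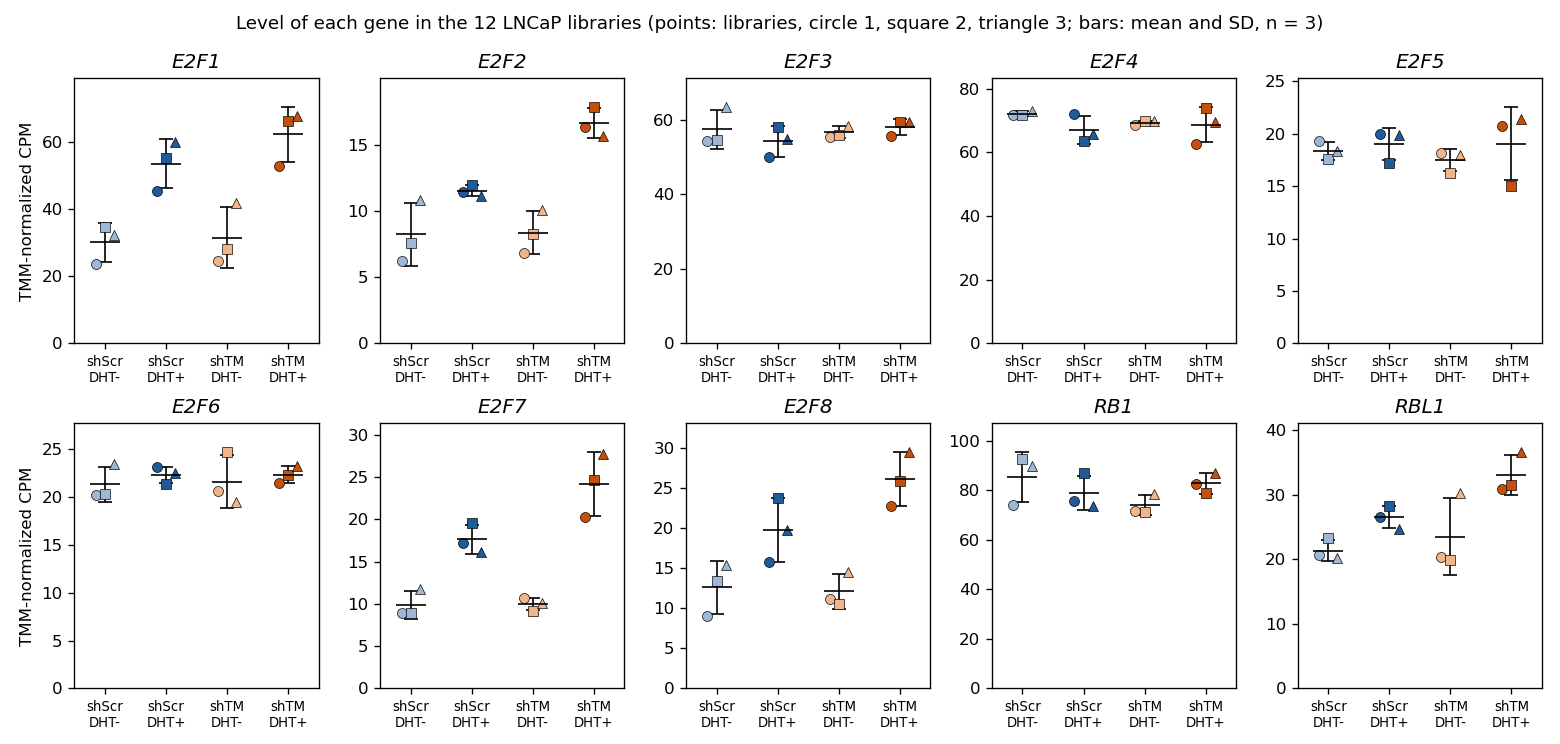
Level of each of the 10 genes in TMM-normalized CPM (vertical axes, starting at 0) in the 4 groups, with shScr for shScramble and shTM for shTMEFF2. Points are libraries, marked by replicate number, and bars give the mean and SD (n = 3). E2F1, E2F2, E2F7 and E2F8 lie higher in DHT+ than in DHT- libraries of the same line without overlap, while E2F3, E2F4, E2F5 and E2F6 overlap between DHT- and DHT+ in both lines.

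The first question was which of these genes responded to androgen. In the control line, E2F1, E2F7 and E2F8 rose with DHT and no member fell. In the knockdown line, the same 3 genes and E2F2 rose and again no member fell. The factors E2F3, E2F4, E2F5 and E2F6 and the gene RB1 did not pass the test in either line. A gene was called where its change reached 1.5-fold and its Benjamini-Hochberg adjusted p, computed over the 15419 genes tested, did not exceed 0.05.

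In shScramble 3 of 10 members were called higher, where 5.45% of all genes tested were, and 0 of 10 lower, where 6.45% of all genes were. DESeq2 and limma-voom also called 3 higher and 0 lower. In shTMEFF2 4 of 10 were called higher, against 3.28% of all genes, and 0 of 10 lower, against 1.6%. Of the 10, 5 passed the adjusted p alone in the higher direction in shTMEFF2, against 7.84% of all genes. The DHT- and DHT+ libraries did not overlap, with DHT+ higher, for 5 members in shScramble and 6 in shTMEFF2, a state shared by 21.3% and 15.6% of all genes. The median log2 fold change of the members was 0.19 in shScramble and 0.33 in shTMEFF2, beside -0.01 and -0.02 over all genes.

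E2F1, the best known activator, lies on chromosome 20 from 33675477 to 33686385 (GRCh38, minus strand). Its level was 23.6, 34.6 and 32.2 CPM in shScramble DHT- and 45.5, 55.2 and 59.9 CPM in shScramble DHT+. In shTMEFF2 it was 24.5, 28.2 and 41.8 CPM without DHT and 52.8, 66.3 and 67.7 CPM with DHT. The DHT+ libraries were above every DHT- library of either line. The fold change was 1.78 in shScramble (log2 0.83, SE 0.194, adjusted p = 0.00697) and 1.98 in shTMEFF2 (log2 0.98, SE 0.193, adjusted p = 0.00618), both by edgeR.

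E2F2, the activator with the lowest level, lies on chromosome 1 from 23506438 to 23531233 (minus strand). It was at 6.24, 7.60 and 10.8 CPM in shScramble DHT- and at 11.5, 11.96 and 11.2 CPM in shScramble DHT+. In shTMEFF2 the libraries were at 6.83, 8.23 and 10.0 CPM without DHT and at 16.3, 17.8 and 15.7 CPM with it. The groups did not overlap within either line, but in shScramble the gap was narrow, from 10.8 to 11.2 CPM. E2F2 rose 1.98-fold in shTMEFF2 (log2 0.99, SE 0.183, adjusted p = 0.00454). In shScramble the fold was 1.40 (log2 0.49, SE 0.185, adjusted p = 0.0691), which did not pass. Without replicate 3 of shScramble DHT-, its highest library there, the log2 value in shScramble was 0.74 (adjusted p = 0.00707), and E2F2 was then called in both lines.

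E2F3, the third activator, gave values near 0. Its libraries ranged from 49.9 to 63.5 CPM over all 4 groups. The log2 fold change with DHT was -0.08 in shScramble (95% interval -0.25 to 0.09) and 0.04 in shTMEFF2 (-0.13 to 0.21). Both intervals lie within 1.5-fold in either direction.

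The repressors E2F4, E2F5 and E2F6 also gave values near 0. E2F4 ranged from 62.7 to 73.8 CPM, E2F5 from 15.02 to 21.4 CPM and E2F6 from 19.5 to 24.7 CPM over the 12 libraries. Their log2 fold changes with DHT lay between -0.10 (E2F4, adjusted p = 0.303, shScramble) and 0.13 (E2F5, adjusted p = 0.580, shTMEFF2). The 95% intervals for E2F4 were -0.26 to 0.05 in shScramble and -0.16 to 0.14 in shTMEFF2, and the widest of the group, that of E2F5 in shTMEFF2, was -0.15 to 0.40. Exons of E2F5 overlap those of RBIS and of a long non-coding RNA on the other strand, and since strand use in the counting is not given in the sources used here, reads from these genes may be shared.

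The atypical repressors gave the steepest values in shTMEFF2. E2F7 lies on chromosome 12 from 77021248 to 77065569 (minus strand). It was at 8.91, 8.89 and 11.7 CPM in shScramble DHT- and at 17.2, 19.5 and 16.2 CPM in shScramble DHT+. In shTMEFF2 it was at 10.7, 9.21 and 10.1 CPM without DHT and at 20.2, 24.6 and 27.7 CPM with DHT. Every DHT+ library was above every DHT- library, and the shTMEFF2 DHT+ libraries were the 3 highest of all 12. The fold was 1.79 in shScramble (log2 0.84, SE 0.146, adjusted p = 0.000996) and 2.42 in shTMEFF2 (log2 1.27, SE 0.145, adjusted p = 0.000419), both by edgeR, the highest fold with DHT among the 10 genes in each line.

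E2F8 lies on chromosome 11 from 19224063 to 19241620 (minus strand), with exons that overlap CSRP3-AS1 on the other strand. It was at 9.01, 13.4 and 15.4 CPM in shScramble DHT- and at 15.8, 23.8 and 19.7 CPM in shScramble DHT+. In shTMEFF2 it was at 11.2, 10.5 and 14.6 CPM without DHT and at 22.8, 25.9 and 29.5 CPM with DHT. In shScramble the groups were separated only by the step from 15.4 to 15.8 CPM, whereas in shTMEFF2 the lowest DHT+ library was well above the highest DHT- library. E2F8 rose 1.57-fold in shScramble (log2 0.65, SE 0.204, adjusted p = 0.0317) and 2.15-fold in shTMEFF2 (log2 1.11, SE 0.203, adjusted p = 0.00438). The call in shScramble was lost in 7 of 21 other settings, with log2 values of 0.46 (adjusted p = 0.118) without replicate 1 of shScramble DHT-, 0.70 (adjusted p = 0.0563) without its replicate 2, 0.50 (adjusted p = 0.13) without replicate 2 of shScramble DHT+ and 0.65 (adjusted p = 0.064) without its replicate 3. The call in shTMEFF2 held in all 21.

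Of the pocket proteins, RB1, the retinoblastoma protein, ranged from 71.4 to 92.8 CPM. It was at 74.1, 92.8 and 89.8 CPM in shScramble DHT- and at 75.9, 86.8 and 73.9 CPM in shScramble DHT+. In shTMEFF2 it was at 71.8, 71.4 and 78.6 CPM without DHT and at 82.5, 79.0 and 87.2 CPM with DHT. The shScramble groups overlapped and the shTMEFF2 groups were just apart, with log2 fold changes of -0.12 (adjusted p = 0.382) and 0.16 (adjusted p = 0.279), neither of which passed.

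RBL1 encodes p107, a pocket protein that is itself an E2F target, and lies on chromosome 20 from 36996349 to 37095997 (minus strand), with exons that overlap a long non-coding RNA on the other strand. It was at 20.6, 23.3 and 20.2 CPM in shScramble DHT- and at 26.6, 28.2 and 24.8 CPM in shScramble DHT+. In shTMEFF2 it was at 20.3, 19.8 and 30.4 CPM without DHT and at 31.0, 31.5 and 36.7 CPM with DHT. Replicate 3 of shTMEFF2 DHT- stood close to the DHT+ libraries. The log2 fold change was 0.31 in shScramble (SE 0.147, adjusted p = 0.137), and 0.49 in shTMEFF2 (SE 0.146, adjusted p = 0.0431), where it passed the adjusted p but not the 1.5-fold limit. Without that replicate 3 the value in shTMEFF2 was 0.73 (adjusted p = 0.00159), past both limits. The adjusted p exceeded 0.05 in 11 of 21 other settings, at most without replicate 2 of shTMEFF2 DHT- (0.38, adjusted p = 0.164).

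**Figure D2:**
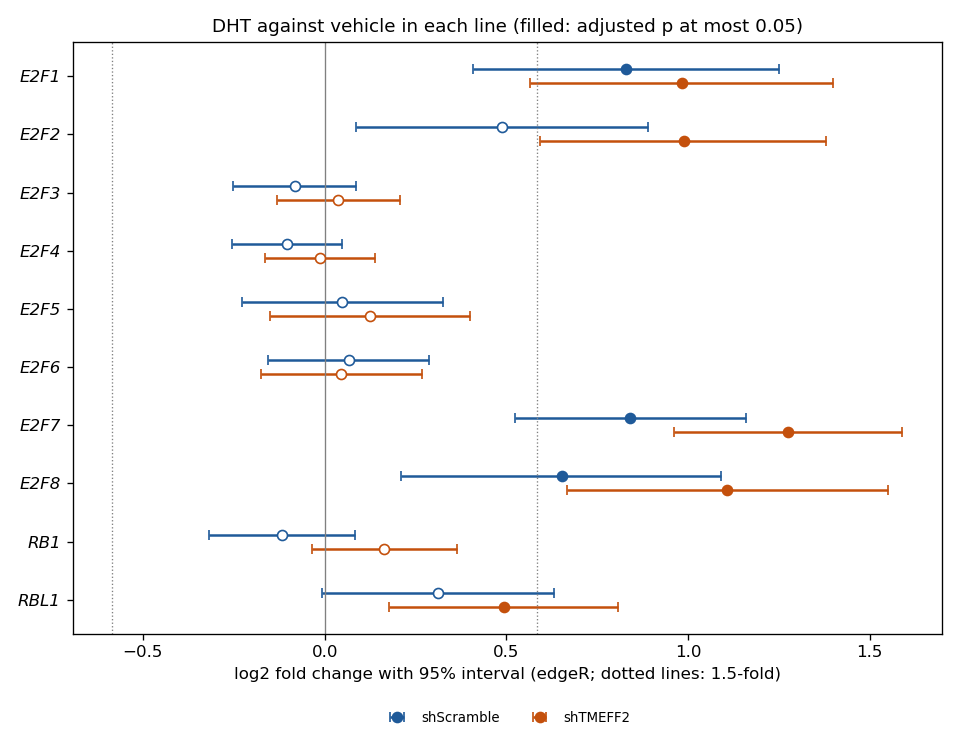
Log2 fold change of DHT+ against DHT- (horizontal axis) for each gene in shScramble and in shTMEFF2, with 95% intervals from edgeR. Filled points passed an adjusted p of 0.05 and dotted lines mark 1.5-fold. E2F1, E2F7 and E2F8 are filled in both lines, E2F2 and RBL1 in shTMEFF2, while E2F3, E2F4, E2F5, E2F6 and RB1 have intervals that include 0 in both.

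Within groups the textbook E2F targets, a list of 24 genes described further on, lay low in every library numbered 1. Their median deviation from the group mean on the log2 scale was -0.22, -0.15, -0.14 and -0.15 in replicate 1 of shScramble DHT-, shScramble DHT+, shTMEFF2 DHT- and shTMEFF2 DHT+, with 1, 2, 1 and 0 of 24 above it. In replicate 3 it was 0.07, 0.05, 0.28 and 0.12, and in replicate 2 it was 0.16, 0.09, -0.11 and 0.03. E2F1 was likewise lowest in replicate 1 of each group. Replicate 3 of shTMEFF2 DHT- was the highest of its group for E2F1, E2F2, E2F3, E2F8, RB1 and RBL1. Without replicate 3 of shTMEFF2 DHT- the log2 fold changes in shTMEFF2 were 1.25 for E2F1 (adjusted p = 0.00111), 1.15 for E2F2 (adjusted p = 0.00341) and 1.27 for E2F8 (adjusted p = 0.00378). Without replicate 1 of shScramble DHT- those in shScramble were 0.68 for E2F1 (adjusted p = 0.0341) and 0.32 for E2F2 (adjusted p = 0.24).

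The second question was whether the lines differed. Without DHT no member was called in either direction by edgeR, DESeq2 or limma-voom, where 0.298% of all genes were called higher and 0.272% lower in shTMEFF2. At an unadjusted p under 0.05 were 2080 of 15419 genes and 1 member, RB1. Its log2 fold change was -0.21 (SE 0.092, adjusted p = 0.337, edgeR), and its libraries overlapped between the lines. E2F4 was the single member whose libraries did not overlap, lower in shTMEFF2 by 0.06 on the log2 scale (adjusted p = 0.806), a state shared by 9.18% of all genes. For the 4 genes that rose with DHT in shTMEFF2 the 95% intervals of the difference were -0.36 to 0.49 for E2F1, -0.38 to 0.43 for E2F2, -0.30 to 0.34 for E2F7 and -0.50 to 0.39 for E2F8.

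With DHT no member passed both limits either, by edgeR, DESeq2 or limma-voom, where 3.03% of all genes were called higher and 3.74% lower in shTMEFF2. At an unadjusted p under 0.05 there were 3, E2F2, E2F7 and RBL1, all with higher means in shTMEFF2. Over all genes 4506 of 15419 were under it, a share close to that of the members. E2F7 was 1.37-fold higher (log2 0.46, SE 0.141, adjusted p = 0.0441), and so passed the adjusted p alone, as 6.93% of all genes did in that direction. E2F2 had a log2 difference of 0.53 (SE 0.18, adjusted p = 0.0667), E2F8 of 0.40 (adjusted p = 0.206), RBL1 of 0.32 (adjusted p = 0.167) and E2F1 of 0.22 (adjusted p = 0.496). The shScramble and shTMEFF2 libraries did not overlap for E2F2, E2F7 and RBL1, higher in shTMEFF2 in each case, a state shared by 15.5% of all genes. The median over the members was 0.16, beside 0.00 over all genes. Across the other settings the adjusted p of E2F7 ranged from 0.0185 to 0.243.

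Whether the lines differed in their response to DHT was then tested directly, as an interaction. No member passed (0 of 10 by edgeR, DESeq2 and limma-voom). Over all genes 1.65% passed with a higher and 3.29% with a lower response in shTMEFF2. At an unadjusted p under 0.05 were 0 members and 2704 of 15419 genes. The estimates were 0.50 for E2F2 (95% interval -0.06 to 1.06, adjusted p = 0.353), 0.45 for E2F8 (-0.17 to 1.08, adjusted p = 0.47) and 0.44 for E2F7 (-0.01 to 0.88, adjusted p = 0.295). For RB1 it was 0.28 (-0.00053 to 0.56, adjusted p = 0.286), for RBL1 0.18 (-0.27 to 0.63, adjusted p = 0.734) and for E2F1 0.15 (-0.44 to 0.74, adjusted p = 0.841). E2F2, called with DHT in shTMEFF2 and not in shScramble, was therefore not shown to respond differently, and these intervals also hold differences of more than 1.5-fold for E2F1, E2F2, E2F7, E2F8 and RBL1.

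**Figure D3:**
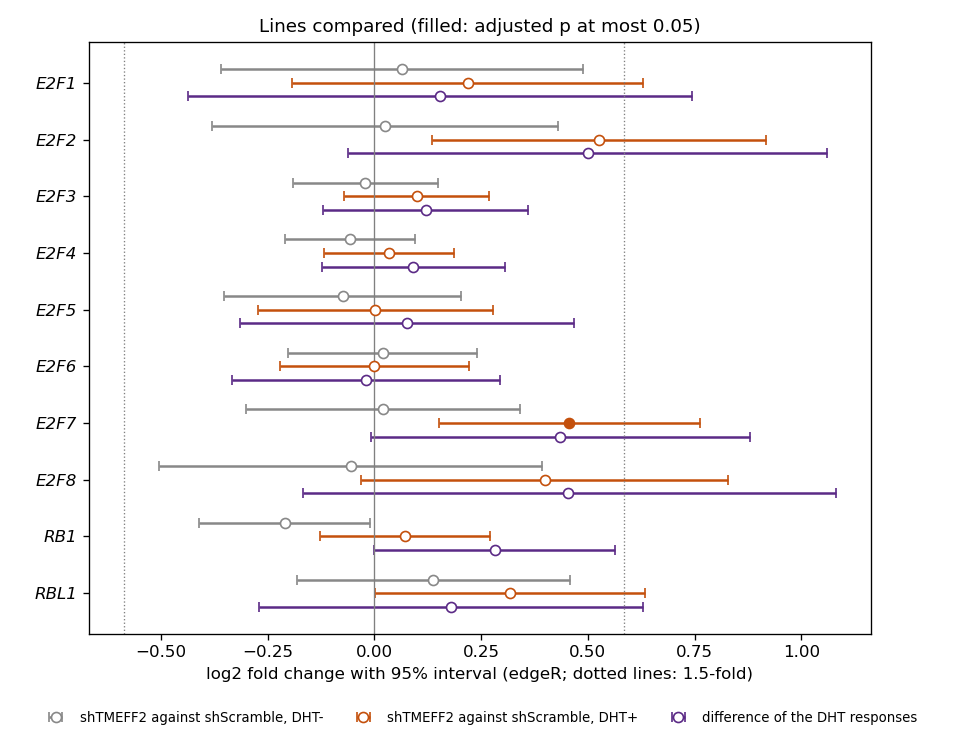
Log2 fold change of shTMEFF2 against shScramble without and with DHT, and the difference of the DHT responses (horizontal axis), for each gene with 95% intervals from edgeR. The single filled point, past an adjusted p of 0.05, is E2F7 with DHT, and no point lies beyond the dotted 1.5-fold lines.

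Genes around the family were described from 3 lists. The textbook E2F targets are 24 genes of DNA replication and S phase, all tested. In shScramble 7 of them rose with DHT and 0 fell, with a median log2 fold change of 0.55, while 15 passed the adjusted p alone. Of these MCM3, MCM4, MCM5 and UHRF1, named after their values were seen, were at 1.48-fold, just under the limit, and 6 to 12 were called under other settings. The 4 with the largest fold were CDC6, which loads the replicative helicase, at 0.97 (SE 0.124, adjusted p = 9.99e-05), the phosphatase CDC25A at 0.88 (adjusted p = 0.000182), the helicase factor CDC45 at 0.77 (adjusted p = 0.00599) and RRM2, a subunit of ribonucleotide reductase, at 0.77 (adjusted p = 0.00568). In shTMEFF2 21 of the 24 rose and 0 fell, with a median of 0.83, and 22 passed the adjusted p alone (20 to 22 were called under other settings). They were led by RRM2 at 1.21 (adjusted p = 0.00126), CDC6 at 1.16 (adjusted p = 0.000286), CDC45 at 1.15 (adjusted p = 0.0017) and cyclin A2, CCNA2, at 1.02 (adjusted p = 0.00486). Between the lines with DHT, 24 of 24 had values above 0 with a median of 0.41, but 0 passed both limits by edgeR, 8 passed the adjusted p alone and 20 an unadjusted p under 0.05. Up to 2 were called under other settings. Without DHT 0 of 24 were called, 0 had an unadjusted p under 0.05, and the median was 0.08. For the interaction 0 of 24 passed by edgeR and 7 had an unadjusted p under 0.05, with a median of 0.30. Up to 4 passed under other settings. Over all 15419 genes an unadjusted p under 0.05 was reached between the lines by 4506 with DHT and 2080 without it. For the interaction it was reached by 2704. With DHT against vehicle 5.45% of all genes were called higher and 6.45% lower in shScramble, and 3.28% and 1.6% in shTMEFF2. The adjusted p alone was passed in the higher direction by 2217 genes in shScramble, 1209 in shTMEFF2 and 1068 between the lines with DHT. The plot of the lists shows the median of the E2F targets above those of the other groups in both lines.

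The partner list holds 12 genes, the dimerization partners TFDP1 and TFDP2, the pocket protein RBL2, the subunits of the DREAM and MuvB complexes and the partners of E2F6. In shScramble 1 of 12 rose, LIN52, a MuvB subunit, at 0.72 (SE 0.141, adjusted p = 0.00226). TFDP2 at -0.42 (adjusted p = 0.015) and RBL2 at -0.37 (adjusted p = 0.044) passed the adjusted p alone. In shTMEFF2 2 of 12 rose, MYBL2, the MYB factor that joins MuvB in cycling cells, at 0.86 (SE 0.175, adjusted p = 0.00738) and LIN9 at 0.70 (adjusted p = 0.00551). LIN52 at 0.55 (adjusted p = 0.0241) and PCGF6, a partner of E2F6, at 0.42 (adjusted p = 0.0333) passed the adjusted p alone there. The medians were 0.09 and 0.14. Of all genes 5.45% were called higher in shScramble and 3.28% in shTMEFF2. The adjusted p alone was passed by 2217 higher and 1940 lower of 15419 genes in shScramble, and by 1209 and 804 in shTMEFF2. The counts of the list in shScramble were near these shares. Between the lines with DHT 1 of 12, MYBL2, was called higher in shTMEFF2 at 0.62 (SE 0.174, adjusted p = 0.0301), a call that was lost in 5 of 21 other settings with adjusted p up to 0.106. These were the first column of each library, and the fits without replicate 1 (0.54) or replicate 2 (0.61) of shScramble DHT+ and without replicate 2 (0.55) or replicate 3 (0.58) of shTMEFF2 DHT+. TFDP2 at 0.45 (adjusted p = 0.0163) passed the adjusted p alone between the lines with DHT, higher in shTMEFF2 and without overlap. Of all genes 3.03% were called higher there and 6.93% passed the adjusted p in that direction. Without DHT and for the interaction 0 of 12 were called by edgeR, and no other tool or setting called any. At an unadjusted p under 0.05 were 1 and 2 of the 12, beside 2080 and 2704 of 15419 genes.

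The list of RB kinases, their cyclins and inhibitors holds 14 genes, of which 13 were tested, CCND2 having too few counts. In shScramble CDK2, the partner of cyclin E, rose by 0.63 (SE 0.097, adjusted p = 0.000425) and CDKN1A (p21), its inhibitor, fell by 0.61 on the log2 scale (adjusted p = 0.00759). Both lie close to the 1.5-fold limit, and were called in 18 and 19 of 21 other settings. In shTMEFF2 4 of 13 rose, CDK2 by 0.79 (adjusted p = 0.000608), cyclin E2, CCNE2, by 0.72 (adjusted p = 0.00298), SKP2, which marks p27 for degradation, by 0.68 (adjusted p = 0.00111) and the CDK4 and CDK6 inhibitor CDKN2C by 0.67 (adjusted p = 0.0195), and 0 fell. In shScramble CCNE2 at 0.40 (adjusted p = 0.0284), SKP2 at 0.30 (adjusted p = 0.0384) and CDKN1B at -0.30 (adjusted p = 0.0023) passed the adjusted p alone. In shTMEFF2 CCNE1 at 0.42 (adjusted p = 0.0263) did. Over all genes 5.45% were called higher and 6.45% lower in shScramble, and 3.28% and 1.6% in shTMEFF2. The adjusted p alone was passed by 2217 higher and 1940 lower genes in shScramble, and by 1209 and 804 in shTMEFF2, of 15419. The medians of the 13 with DHT were 0.18 and 0.42.

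Between the lines with DHT, 4 of the 13 had higher levels in shTMEFF2 that passed the adjusted p alone, CCNE2 at 0.44 (adjusted p = 0.0257), CDK2 at 0.42 (adjusted p = 0.00953), CCNE1 at 0.35 (adjusted p = 0.046) and SKP2 at 0.32 (adjusted p = 0.0378). Cyclin D1, CCND1, passed it with a lower level (-0.34, adjusted p = 0.00342). Over all 15419 genes 1068 passed it with a higher and 1402 with a lower level, and 3.74% were called lower. Past both limits, CDK6 was lower in shTMEFF2 by 2.14 on the log2 scale (SE 0.45, adjusted p = 0.0063) and CDKN1C by 1.44 (adjusted p = 0.0485), log2 fold changes of -2.14 and -1.44. Both rest on low counts, 46 to 95 against 10 to 28 reads per library for CDK6 and 13 to 40 against 6 to 17 for CDKN1C, whose groups overlapped. The CDK6 call was lost with the second column of each library (adjusted p = 0.202), and that of CDKN1C in 15 of 20 other settings, with -0.96 (adjusted p = 0.203) without replicate 3 of shScramble DHT+. Without DHT 0 of 13 were called, with 4 at an unadjusted p under 0.05, and for the interaction 0 of 13, with 5, by edgeR. Of all 15419 genes 2080 and 2704 had such a p. Other settings called none without DHT and up to 2 for the interaction.

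**Figure D4:**
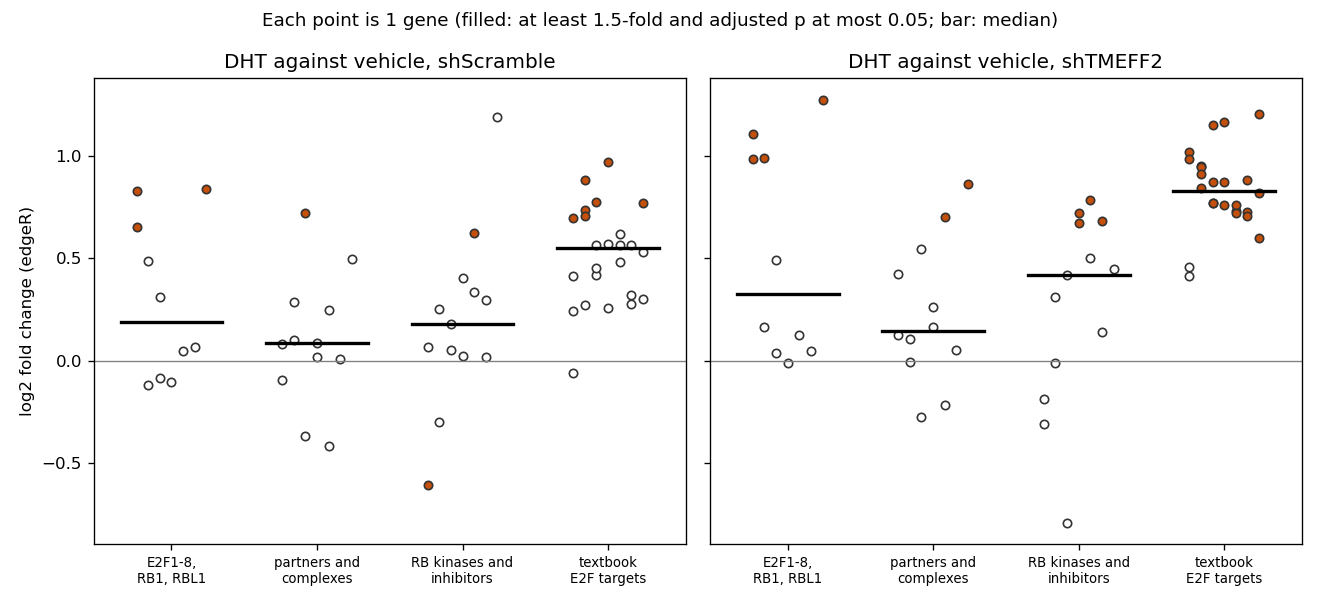
Log2 fold change of DHT+ against DHT- (vertical axes) in shScramble and shTMEFF2 for the 10 members and the 3 lists. Each point is 1 gene, filled where it passed 1.5-fold and an adjusted p of 0.05, and bars are medians, which for the E2F targets are 0.55 in shScramble and 0.83 in shTMEFF2.

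Across the 12 libraries the members fell into genes that moved together and genes that did not, given as Pearson correlations of log2 CPM without a p, since the libraries share groups, treatment and, in part, transductions. The correlations run over all groups, so the rise with DHT described above is part of them. E2F1, E2F2, E2F7, E2F8 and RBL1 correlated with each other at 0.80 to 0.95, highest for E2F1 with E2F8. E2F3, E2F4, E2F5 and E2F6 correlated with those 5 at -0.33 to 0.36, and RB1 at 0.24 to 0.46. Of 11146 genes with a mean of at least 5 CPM, those most like E2F1 were FEN1 (0.99), itself on the list of E2F targets, SHCBP1 (0.984) and UBE2T (0.979). For E2F7 they were DDX10 (0.975), CLSPN (0.974) and PPIH (0.972), for E2F8 KNTC1 (0.98), RFC3 (0.979) and DSN1 (0.979), and for E2F2 SSRP1 (0.96), PPM1G (0.95) and CHAF1B (0.947).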

How the data were processed

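The deposited table holds expected counts per gene symbol. The authors checked reads with FastQC, trimmed them with Trimmomatic, quantified 75 bp paired reads with kallisto 0.42.3 on GRCh38, and summed the estimated counts per gene with tximport, scaled by length and library size, so the deposited counts need not be whole. Strand use is not given in the sources used here.

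Each library had 2 columns, taken as repeat runs because their names differ by a suffix, which were summed and rounded. The chi-square ratio to sampling noise was 2.48 to 2.77 between the columns of a library and 4.91 to 6.30 between replicates. Totals were 19450866 to 22612046 per library (median 21194622). In R 4.3.3, edgeR 4.0.16 fitted all 12 libraries with TMM factors (0.955 to 1.037), filterByExpr (minimum count 10, minimum total 15) and 1 coefficient per group. Tests were two-sided quasi-likelihood tests. SE is the log2 fold change divided by the root of F. Groups came from the labels. Alternatives used DESeq2 1.42.0, limma-voom (limma 3.58.1), other filters, scaling, columns, fewer libraries and the replicate block. The statistics were tested on simulated counts.

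Named genes are the 10 members, TMEFF2, up to 4 called genes with the largest change per list and comparison, genes of the 2 shorter lists that passed the adjusted p alone where a sentence says so, and the 3 genes that correlated best with each called member (log2 CPM, prior count 2). The members, lists and rules were chosen with earlier results of these data known. Positions are from GENCODE on GRCh38. No pseudogene of a member reached 1 CPM. The result of 1 luminal marker is not reported here.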

Additional observations from a re-analysis of the deposited data

How the results depend on the processing

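Over 50 combinations of member and comparison, 1040 values were computed under other settings. Of 147 values of the 7 called combinations, 140 kept the call, 7 lost it, none changed sign and 2 moved by more than 1 SE. Of 893 values that were not called, 3 became called and 50 changed sign. All 7 losses were E2F8 with DHT in shScramble, where besides the libraries left out they came with library size only (0.58, adjusted p = 0.0554), the first column of each library (0.57, adjusted p = 0.0972) and the 6 libraries of the comparison alone (0.65, adjusted p = 0.0536). The third gain, beside those of E2F2 and RBL1 without a library, was E2F2 in shScramble with the second column (0.60, adjusted p = 0.0499). With the adjusted p alone, 1 of 10 members, E2F7, passed between the lines with DHT, near the 6.93% of all genes that passed with a higher level there. Leaving out each library gave 2 to 4 members called with DHT in shScramble, 4 to 5 in shTMEFF2, and 0 for the other comparisons. Over the other settings, library size alone in place of TMM among them, the median log2 fold change of all genes lay within 0.082 of 0 in every comparison.

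Same-numbered libraries of different groups deviated together weakly, but more than libraries with different numbers. Their correlations were -0.002 to 0.169 (median 0.072), over 0.1 in 3 of 18 pairs. For different numbers they were -0.14 to 0.066 (median -0.028), over 0.1 in 0 of 36. The deviations were taken from group means, which ties the values for different numbers to those for the same number. Different numbers are therefore not an independent reference. The E2F targets and E2F1 also varied with the number, as described above. The main fit did not pair the samples by number, so variation shared by number stayed in its spread. With the replicate block the SE of TMEFF2 between the lines without DHT was 0.143, beside 0.249 in the main fit. With the replicate number as a block, the members called were 3 with DHT in shScramble, 4 in shTMEFF2 and 0 in the other comparisons, so it changed no count of called members.

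Counts over all genes moved more. Called lower with DHT in shTMEFF2 were 247 genes, 156 without replicate 2 of shTMEFF2 DHT- and 103 without replicate 3 of shTMEFF2 DHT+. In shScramble 995 were lower, and 653 at a mean above 5 CPM. Between the lines without DHT 46 higher and 42 lower became 97 and 83 with DESeq2, 88 and 69 without a filter, 73 and 71 with the block, and as few as 14 and 17 with a library left out. For the interaction 254 higher became 479 with DESeq2, 432 with the block and as few as 127 with a library left out, and 507 lower became 329 without replicate 1 of shScramble DHT+. Low counts limit CDK6 and CDKN1C, at 6 to 95 per library, and CCND2, at 0 to 3, was not tested.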
